A study of Mus musculus with 8 samples.

Results

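Interferon-induced antiviral effector genes are switched on in macrophages after lipopolysaccharide (LPS), a component of the outer membrane of Gram-negative bacteria, is sensed. The list held 38 genes: the type I interferon gene Ifnb1 and genes whose products block virus replication, sense foreign nucleic acid or tune that response. The assay was ATAC-seq: a transposase inserts sequencing adapters into open DNA. Peaks of the 8 deposited lists were merged into 76751 regions, and each region was assigned to the protein-coding gene whose span end lay nearest to its summit, within 50 kb. In all, 162 regions belonged to 35 of the 38 members. Sp110 had no region. Mx1 and Mx2 are transcribed pseudogenes in the annotation used and so received none by this rule. A member with a region had a median of 4 regions (range 1 to 12), against a median of 3 over the 15361 genes with a region.

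The cells were bone-marrow-derived mouse macrophages, wild type (WT) or Lamin-A KO (KO), where Lamin-A is a filament protein of the nuclear lamina. Each genotype was left untreated or activated with LPS for 6 h. Each of the 4 groups had 2 libraries. All cells grew for 7 days from bone marrow in dishes and were frozen in medium with DMSO and thawed before the assay. The strain, sex and age of the mice, the LPS dose, the targeted part of the gene, and whether the 2 replicates came from different animals are not given in the sources used here. Adjusted p-values therefore measure only the spread between these libraries. For the LPS samples the source name still says untreated, and the titles and treatment fields, which say LPS, were followed.

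As background, LPS binds TLR4, and signalling through the adaptor TRIF activates the kinase TBK1 and the factor IRF3, which induce Ifnb1. Secreted interferon-beta binds its receptor, and receptor-bound kinases activate the transcription factor complex ISGF3, which binds the interferon-stimulated response element (ISRE) near the starts of the effector genes. The GAS element is a related interferon-responsive site.

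The lists held 44504 to 59750 peaks, and the KO lists were the shorter ones (44504 to 49661 against 53942 to 59750 in WT). The number of reads over each summit, the pileup, and the local background around it were worked out exactly from the deposited enrichment and p-values. The lowest background, the genome-wide one, was 5.53 reads in every library, and no called peak had a pileup under 23 reads (24 in 3 libraries). The median pileup over regions called in all 8 libraries was 124 to 149 reads in WT and 94 to 121 in KO. All 8 macrophage markers examined had a region in every library, and markers of T and NK cells (2 of 5, Cd3d and Cd4) and of neutrophils (1 of 4, S100a8) gave the same number in every library. Dendritic cell markers had 1 to 2 of 4, erythroid 0 to 1 of 3 and stromal or endothelial 1 to 2 of 4. Of these, Flt3 had a region in 3 of the 4 untreated libraries and in no LPS library, and Cdh5 in the 2 WT LPS libraries alone, whose part in the results was not tested. The span of Lmna, which encodes Lamin-A, held 5 to 7 peaks in every library (highest pileup 435 to 583 reads in WT and 366 to 565 in KO), which does not check the deletion. The 2 libraries of a group shared 77.4 to 83.9% of their combined member regions and 78.4 to 82.3% of all regions.

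The bases just before the starts of 8 members are shown because the calls and pileups described below turn on these genes. They were taken from RefSeq (GRCm38.p6) as the 250 bases 5′ of the start, read in the direction of the gene. Capitals mark matches to the core of the ISRE (GAAA, any 2 bases, then GAAA) on either strand. The promoter window searched ran from 250 bases before to 50 bases after a start, 300 bases in all, and 30 of the 38 members had at least 1 such window. The windows are chr19:34640639-34640888 on the plus strand for Ifit1, chr19:34583279-34583528 on the plus strand for Ifit3, chr4:156200819-156201068 on the minus strand for Isg15 and chr1:174031756-174032005 on the minus strand for Ifi205. Those of the others are chr12:26456453-26456702 on the minus strand for Rsad2, chr5:120777660-120777909 on the minus strand for Oas3, chr3:151749911-151750160 on the minus strand for Ifi44 and chr4:88522795-88523044 on the minus strand for Ifnb1.
Ifit1: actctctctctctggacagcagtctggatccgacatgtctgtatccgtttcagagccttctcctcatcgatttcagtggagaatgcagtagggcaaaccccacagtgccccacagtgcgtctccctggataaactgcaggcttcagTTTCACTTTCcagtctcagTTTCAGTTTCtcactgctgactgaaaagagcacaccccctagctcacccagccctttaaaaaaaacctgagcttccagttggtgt
Ifit3: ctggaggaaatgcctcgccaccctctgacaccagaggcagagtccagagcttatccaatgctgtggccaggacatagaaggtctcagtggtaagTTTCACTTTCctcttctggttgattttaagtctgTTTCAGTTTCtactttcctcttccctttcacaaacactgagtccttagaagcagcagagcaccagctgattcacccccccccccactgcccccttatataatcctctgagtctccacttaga
Isg15: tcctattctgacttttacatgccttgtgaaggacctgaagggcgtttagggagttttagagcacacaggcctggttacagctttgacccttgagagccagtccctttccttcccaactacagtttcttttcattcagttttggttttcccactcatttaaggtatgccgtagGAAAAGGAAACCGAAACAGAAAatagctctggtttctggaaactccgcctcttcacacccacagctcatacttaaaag
Ifi205: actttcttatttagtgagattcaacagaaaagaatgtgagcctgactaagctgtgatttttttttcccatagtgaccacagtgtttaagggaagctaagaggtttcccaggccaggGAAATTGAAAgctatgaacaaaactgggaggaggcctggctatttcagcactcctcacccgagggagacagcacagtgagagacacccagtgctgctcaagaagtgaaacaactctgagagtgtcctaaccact
Rsad2: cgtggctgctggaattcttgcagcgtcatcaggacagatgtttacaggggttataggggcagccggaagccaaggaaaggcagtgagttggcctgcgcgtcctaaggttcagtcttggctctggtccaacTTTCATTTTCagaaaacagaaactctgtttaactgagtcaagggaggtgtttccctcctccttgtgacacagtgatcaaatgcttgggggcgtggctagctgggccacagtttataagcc
Oas3: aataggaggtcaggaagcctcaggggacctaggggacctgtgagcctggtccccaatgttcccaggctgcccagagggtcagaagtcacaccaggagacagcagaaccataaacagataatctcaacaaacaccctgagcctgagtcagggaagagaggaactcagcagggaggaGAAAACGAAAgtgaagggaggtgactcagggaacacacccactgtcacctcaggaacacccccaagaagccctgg
Ifi44: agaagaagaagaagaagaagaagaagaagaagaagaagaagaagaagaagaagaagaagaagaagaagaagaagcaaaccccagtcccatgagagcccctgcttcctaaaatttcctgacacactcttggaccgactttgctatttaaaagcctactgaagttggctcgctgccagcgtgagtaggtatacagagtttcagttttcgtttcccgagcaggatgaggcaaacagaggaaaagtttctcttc
Ifnb1: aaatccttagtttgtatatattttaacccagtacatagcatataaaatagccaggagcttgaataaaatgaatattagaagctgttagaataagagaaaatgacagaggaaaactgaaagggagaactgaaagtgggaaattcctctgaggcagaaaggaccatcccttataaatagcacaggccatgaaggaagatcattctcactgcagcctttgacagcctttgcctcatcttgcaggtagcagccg

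The ISRE core letters were present in a window of 12 of the 30 members (40.0%), against 3.99% of all 27025 genes with a window. The 12 were Bst2, Eif2ak2, Ifi203, Ifi205, Ifit1, Ifit3, Isg15, Oas1a, Oas3, Rsad2, Trim21 and Trim30a. Isg15 held 3 matches, and Ifit1, Ifit3, Oas1a, Ifi205, Trim21 and Bst2 held 2 each. Letters of the GAS core, TTCNNNGAA, were in 7 members (23.3% against 9.55% of genes), and those of the AP-1 site, TGANTCA, in 7 (23.3% against 8.97%). The NF-kB letters (GGGA, any 4 bases, then CC) were in 9 of the 30 members (22.9% of genes) and the PU.1 letters GAGGAAGT in 2 (6.67% against 3.69%). All motifs were searched on both strands, and the GAS and ISRE letters can overlap. These shares describe the letters and do not show binding.

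Starts of these genes were mostly open before LPS. Of the 30 members with a window, 25 (83.3%) had a window under a peak in all 8 libraries, against 32.0% of all 27025 genes. No library had a peak over the windows of Oasl1, Ifnb1 and Sp110, and the Oasl2 window was reached by a peak in WT LPS replicate 1 alone. The other libraries had an Oasl2 peak past the window's edge, in a region called in all 8 libraries (chr5:114896908-114897935). Ifi44, an interferon-induced protein of the cytoplasm, stood apart. Its start region (chr3:151749743-151750133) had 38 and 36 reads in the WT untreated libraries, 83 and 76 in WT LPS, no peak in KO untreated, and 78 and 81 in KO LPS. The WT untreated values lie near the lowest pileup of any called peak, 23 or 24 reads by library. With every list shortened to its 44504 strongest peaks, Ifi44 had no region lost in KO against WT before LPS.

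**Figure D1:**
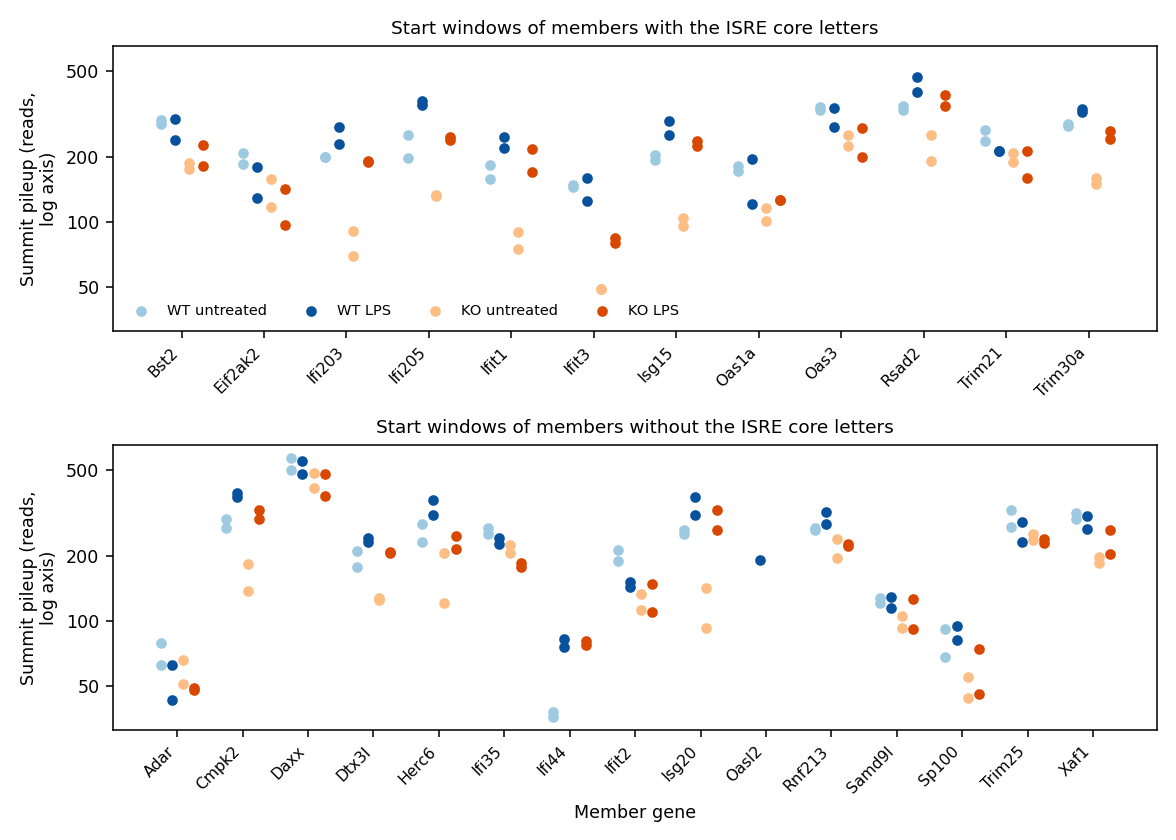
Summit pileup (reads, log axis) of the peak over the start window of each member with such a peak, 1 point per library, with members that hold the ISRE core letters above and the others below; where a gene has several windows, the one reached in most libraries is drawn. Ifi44 has no KO untreated point, and the KO untreated points of Ifit3 (49 and 49) lie below those of every other group.

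After LPS, WT cells gained 26 member regions, called in the WT LPS pair and absent from the WT untreated pair, at 19 members. That is 16.0% of the 162 member regions, against 10.1% of all regions. Genes with at least 1 such region made up 24.4% of all genes with a region. KO cells gained 25 member regions at 17 members, 15.4% against 8.03% of all regions, where 20.9% of genes had a gained region. Members had a median of 4 regions against 3 over all genes with a region, and more regions give more chances of a call. Shares of genes, here and below, are thus not on equal terms. Both genotypes had a gained region at 12 members, 24 members had one in WT or KO, and 11 of the 35 had none. Lost regions were fewer, 5 in WT (3.09% of member regions, against 6.02% of all regions) and 3 in KO (1.85%, against 5.56%). The 2 libraries of a group against 2 cannot give an exact p below 1 in 3, so no p is attached to these calls.

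**Figure D2:**
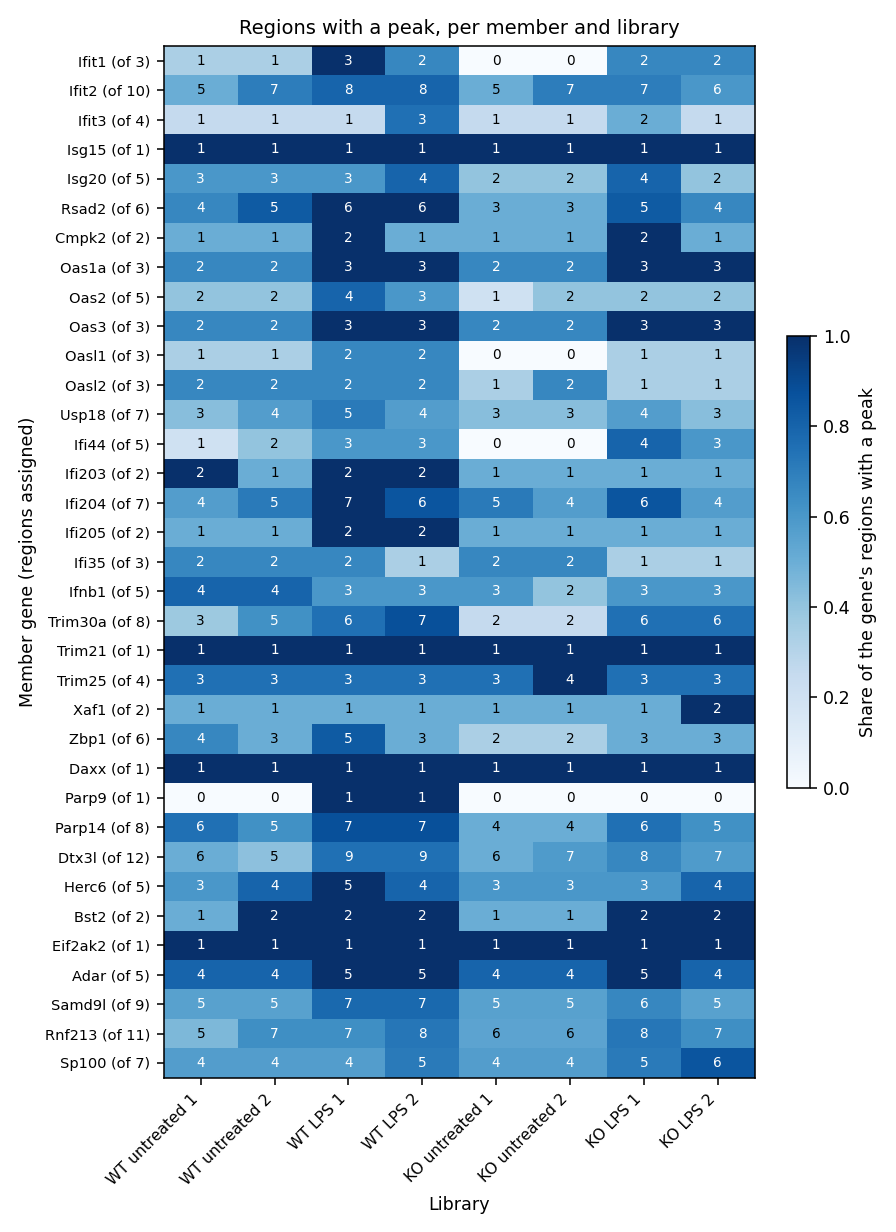
Number of regions with a peak in each library (columns) for the 35 members with a region (listed down the side, with the number of regions assigned), shaded by the share of the gene's regions with a peak. Trim30a goes from 3 and 5 of 8 regions in WT untreated to 6 and 7 in WT LPS, and from 2 and 2 in KO untreated to 6 and 6 in KO LPS.

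Of the 162 regions, 10 (6.17%, against 4.85% of all regions) had a peak in all 4 LPS libraries and in no untreated library. They lay at Usp18, Oas3, Oas1a, Ifnb1, Trim30a, Dtx3l, Ifi44 (2 regions) and Rnf213 (2 regions). The deepest was inside Usp18, the protease that removes ISG15 from proteins and damps interferon receptor signalling. This region, chr6:121250012-121250528, 4.32 kb from the gene end, had 256 and 204 reads in WT LPS and 169 and 137 in KO LPS. A second Usp18 region, chr6:121251252-121251534, did the reverse: it had 51 and 49 reads in WT untreated, 32 and 38 in KO untreated, and no peak after LPS. It was the 1 member region of that pattern, which 1.79% of all regions and 6.09% of genes showed.

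Members of the RNA-sensing group followed. Oas3 encodes one of the 2′-5′ oligoadenylate synthetases, which make the second messenger that activates RNase L. Its region chr5:120776303-120776670, 1.21 kb inside the gene, had 137 and 167 reads in WT LPS and 135 and 109 in KO LPS. Oas1a, of the same family, gained chr5:120908155-120908527, with 80 and 63 reads in WT LPS and 65 and 65 in KO LPS. Rnf213, a large E3 ubiquitin ligase, gained an intragenic pair: chr11:119414130-119414647 (178, 156, 138 and 116 reads in the LPS libraries, WT first) and chr11:119483229-119483695 (158, 136, 126 and 123 reads).

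The other 5 regions of this pattern had 39 to 94 reads. Trim30a, a TRIM-family regulator, gained chr7:104420580-104420971 with 74 and 63 reads in WT LPS and 60 and 65 in KO LPS. At Ifnb1, the region chr4:88490881-88491240 lay 30.95 kb from the gene and had 58 and 61 reads in WT LPS and 55 and 43 in KO LPS. Dtx3l, the ubiquitin ligase partner of PARP9, gained chr16:35929518-35929898 with 60 and 94 reads in WT LPS and 58 and 69 in KO LPS. Both Ifi44 regions, chr3:151739699-151739989 and chr3:151748586-151748923, lay within the gene, with 39 to 67 reads over the LPS libraries. Both WT LPS pileups were above both KO LPS ones at 5 of the 10 regions (Usp18, Oas3, Ifnb1 and both of Rnf213), below them at 1 (Ifi44) and overlapped at 4. The same order was not counted over all regions of this pattern, so these counts have no background. The median pileup of these libraries over shared regions was 124 to 139 reads in WT and 94 to 111 in KO.

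**Figure D3:**
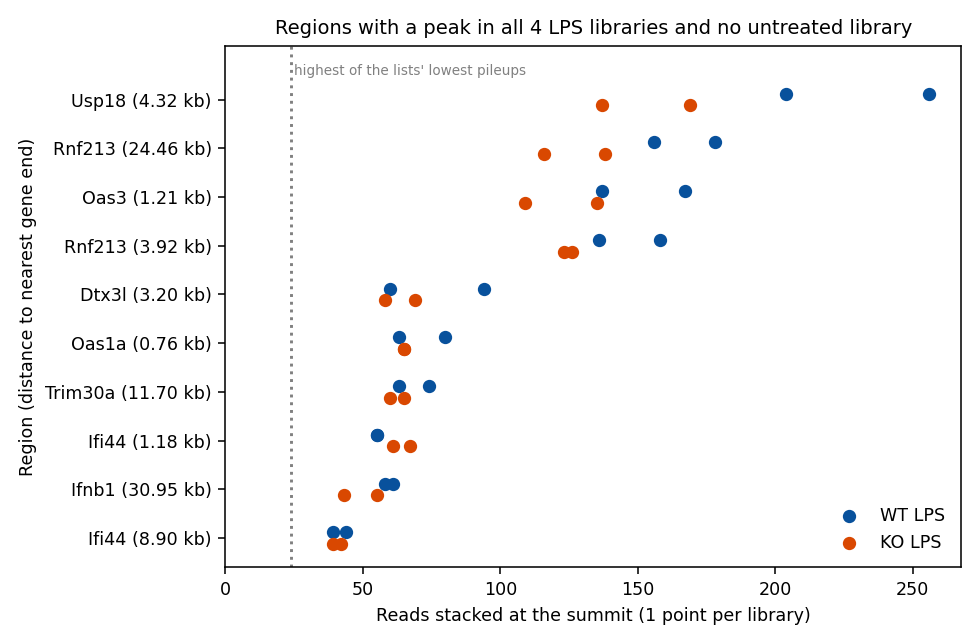
Reads over the summit (horizontal axis) in the 4 LPS libraries at the 10 member regions with a peak in all of them and in no untreated library, labelled by gene and distance to the nearest gene end. The Usp18, Oas3 and Rnf213 regions sit between 109 and 256 reads and the other 6 between 39 and 94, and the dotted line marks 24 reads.

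Regions gained in WT were not always called in KO. Of the 26 gained in WT, 12 were held by both KO LPS libraries (46.2%, against 54.5% of all regions gained in WT) and 9 by neither (34.6%, against 24.7%). The 9 were at Ifit1, Ifit2, Ifi205, Oasl2, Usp18, Trim30a, Samd9l, Dtx3l and Parp9, with WT LPS pileups between 37 and 90 reads. The deepest was 1.96 kb from Ifit2 (chr19:34548454-34548692; 90 and 80 reads), followed by 1 at 0.37 kb from Oasl2 (chr5:114896367-114896649; 75 and 67 reads) and 1 at 3.01 kb from Ifit1 (chr19:34652823-34653175; 65 and 61 reads). In the other direction, 22 of the 25 regions gained in KO were held by both WT LPS libraries (88.0%, against 86.6%) and 0 by neither (5.05% of all). With every list shortened to the 44504 strongest peaks, Ifi205, Ifit1, Oasl2, Parp9 and Samd9l had no region gained in WT.

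Several of the KO gains were regions that WT cells already held before LPS. Both WT untreated, both WT LPS and both KO LPS libraries held 6 such regions, with no peak in KO untreated (3.70% of member regions, against 1.12% of all). Trim30a had the largest span of values among them: chr7:104410566-104411034 had 48 and 49 reads in WT untreated, 198 and 197 in WT LPS, and 131 and 128 in KO LPS. At Oasl1, which restrains translation of Irf7, chr5:114931501-114931931 had 53 and 45 reads, then 115 and 94, and 88 and 66 in KO LPS. Ifit2 (chr19:34553504-34554028) had 97 and 91 reads, then 124 and 118, and 97 and 93 in KO LPS. The remaining 3 were at Ifit1 (chr19:34653902-34654308), at Parp14 (chr16:35871170-35871587) and at the Ifi44 start. With every list shortened to its 44504 strongest peaks, Ifi44, Ifit1, Oasl1 and Parp14 had no region lost in KO against WT before LPS. Ifit2 and Trim30a still did.

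Most gained regions lay away from gene ends. Of the 41 member regions gained in WT or KO, 7 (17.1%) had a summit within 1 kb of a gene end, against 32 of the 65 member regions called in all 8 libraries (49.2%). Over all assigned regions the shares were 7.78% and 34.3%. The member regions gained in WT or KO lay a median of 3.54 kb from a gene end, against 11.1 kb over all gained regions. Member regions of every class together also lay nearer, at a median of 3.15 kb against 7.46 kb over all assigned regions.

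The deposited enrichment of the 65 member regions called in all 8 libraries, at 31 members, was then ranked within each library and tested with limma over all 30960 such regions. In WT, 7 member regions were higher in rank after LPS and 3 lower, where 7.85% of all shared regions were higher and 7.43% lower. In KO, 10 were higher and 3 lower (9.76% and 9.18% of all). With log2 enrichment in place of ranks, 4 were higher and 8 lower in WT and 1 and 6 in KO, and with ranks of −log10 p, 15 and 1 in WT and 23 and 0 in KO. In ranks of enrichment, median shifts were -0.12 normal-score units in WT and 0.11 in KO, against -0.01 and -0.02 over all shared regions. Leaving out any 1 WT library left 2 to 4 regions higher in WT, and leaving out any 1 KO library left 2 to 7 higher in KO.

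Parp14 encodes an ADP-ribosyltransferase of the interferon response. Its region chr16:35888158-35888592, 16.9 kb from the gene, stood at percentiles 13.4 and 11.4 of enrichment in WT untreated and 55.8 and 60.0 in WT LPS (shift 1.35 ± 0.29 SE, adjusted p = 0.00954). In KO untreated it already stood at 59.1 and 82.7, and in KO LPS at 54.7 and 83.1. The 3 other regions with the largest WT shifts upward were within Adar (1.20 ± 0.27 SE, adjusted p = 0.0113), the RNA-editing deaminase, within Trim25 (74 and 69 reads before and 139 and 153 after LPS, adjusted p = 0.00777), the ligase that activates RIG-I, and at Ifi204 (0.98 ± 0.19 SE, adjusted p = 0.00654), a PYHIN-family DNA sensor. In KO the largest upward shifts were at Ifit2 (chr19:34552915-34553291; 1.19 ± 0.22 SE, adjusted p = 0.00337) and Ifi203 (adjusted p = 0.0177).

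The largest shift downward was 3.16 kb from Rsad2, which encodes viperin, an enzyme that makes a chain-terminating nucleotide. Here, at chr12:26439262-26440126, the percentile went from 68.2 and 69.0 to 19.8 and 15.4 in WT (shift -1.42 ± 0.19 SE, adjusted p = 0.000929) and from 72.0 and 74.2 to 26.5 and 34.6 in KO (shift -1.13 ± 0.19 SE, adjusted p = 0.00227). Yet the pileup at this summit was 259 and 284 reads in WT untreated and 350 and 291 in WT LPS, and 164 and 216 in KO untreated against 254 and 259 in KO LPS. The local background went from 18.96 and 20.96 reads to 51.94 and 49.18 in WT, and from 12.52 and 14.98 to 36.88 and 37.26 in KO. Enrichment is pileup over local background, so a region can gain reads and fall in enrichment when reads around it increase more.

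For that reason the pileup and the local background were also tested apart, a choice made after seeing the data. Each was log2-transformed and centred on its library's median over the 30960 shared regions. After LPS the pileup rose at 29 of the 65 member regions in WT (44.6%) and fell at none, where 15.8% of all shared regions rose and 14.5% fell. In KO the pileup rose at 36 (55.4%) and fell at none, where 16.1% of all rose and 16.2% fell. The rises lay at 18 of 31 members in WT and 24 of 31 in KO. The share of all genes with such a rise was not counted, so the member counts have no background. Median changes were 0.39 on the log2 scale in WT and 0.53 in KO, against -0.02 and -0.03 over all shared regions. Without WT LPS replicate 1, or without replicate 2, 19 member regions rose in WT. The uncentred values put 14 regions higher in WT and 25 in KO, with none lower, where the median of all shared regions was -0.18 and -0.19.

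The local background rose at 53 of the 65 regions in WT and fell at none (22.1% of all shared regions rose and 25.1% fell). In KO it rose at 54 and fell at 1, at Herc6 (19.0% and 23.9% of all). At 27 of 31 members in each genotype at least 1 region rose in background, and the share of all genes was not counted. Regions of 1 locus share part of this background and are not independent. Whether reads between peaks or the neighbouring peaks themselves make it up was not tested.

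**Figure D4:**
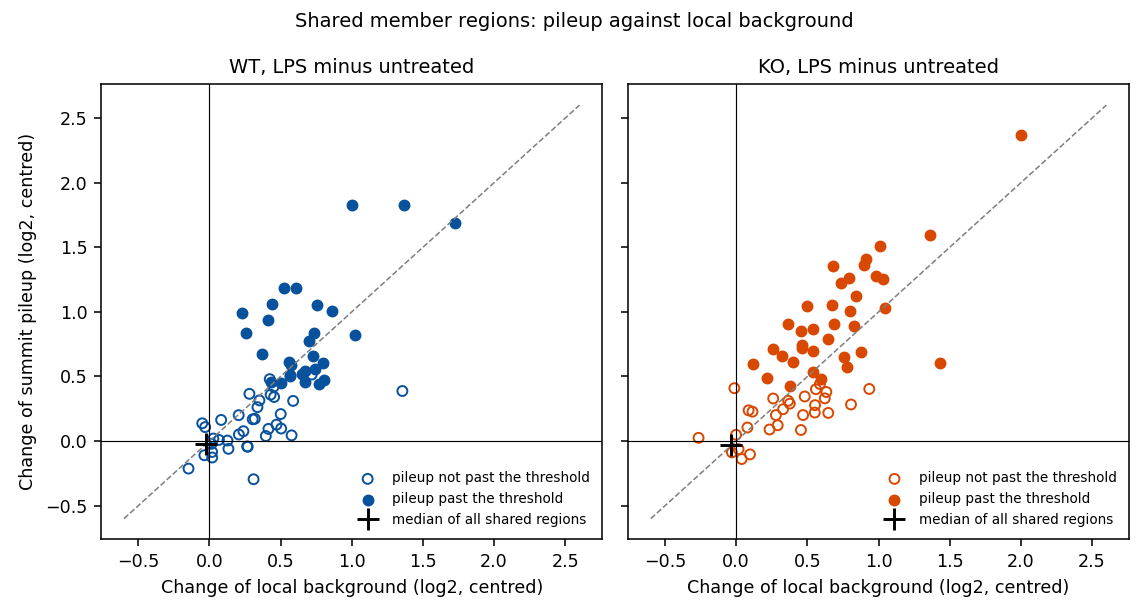
LPS minus untreated change in centred log2 local background (horizontal) and centred log2 summit pileup (vertical) at the 65 member regions called in all 8 libraries, WT left and KO right; filled points passed the threshold in pileup, the dashed line marks equal change and the cross the median of all 30960 shared regions. In WT 29 points and in KO 36 are filled, all above 0, while the crosses lie near 0.

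The Ifit genes encode proteins that bind viral RNA and block its translation, and they showed the widest range. At chr19:34576908-34578284, 0.7 kb past the Ifit2 gene end, the pileup was 85 and 74 reads in WT untreated and 241 and 219 in WT LPS (change in centred log2 pileup 1.69 ± 0.14 SE, adjusted p = 1.05e-05). In KO it was 38 and 45 reads before and 203 and 181 after LPS (2.37 ± 0.14 SE, adjusted p = 3.66e-06), the largest KO rise among members. Over the locus, from 15 kb before Ifit2 to 15 kb past Ifit1, the lists held 14 and 16 peaks in WT untreated, 19 and 20 in WT LPS, 11 and 14 in KO untreated, and 16 and 14 in KO LPS.

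Not every Ifit region followed. The Ifit2 start region, chr19:34550425-34551123, had 190 and 213 reads in WT untreated and 151 and 144 in WT LPS (-0.30 ± 0.14 SE, adjusted p = 0.126), and 113 and 133 against 149 and 110 in KO. Its enrichment rank fell in WT (shift -0.89 ± 0.20 SE, adjusted p = 0.0121). Just 2.56 kb inside the gene, chr19:34552915-34553291 rose in pileup in both genotypes, from 87 and 77 reads to 164 and 121 in WT and from 60 and 62 to 147 and 134 in KO. The Ifit1 start lies under a peak in all 8 libraries that the rule gives to the neighbouring gene Ifit1bl2. Its pileup was 158 and 184 reads in WT untreated, 247 and 221 in WT LPS, 75 and 90 in KO untreated, and 219 and 170 in KO LPS, so no untreated value reached an LPS value of the same genotype.

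**Figure D5:**
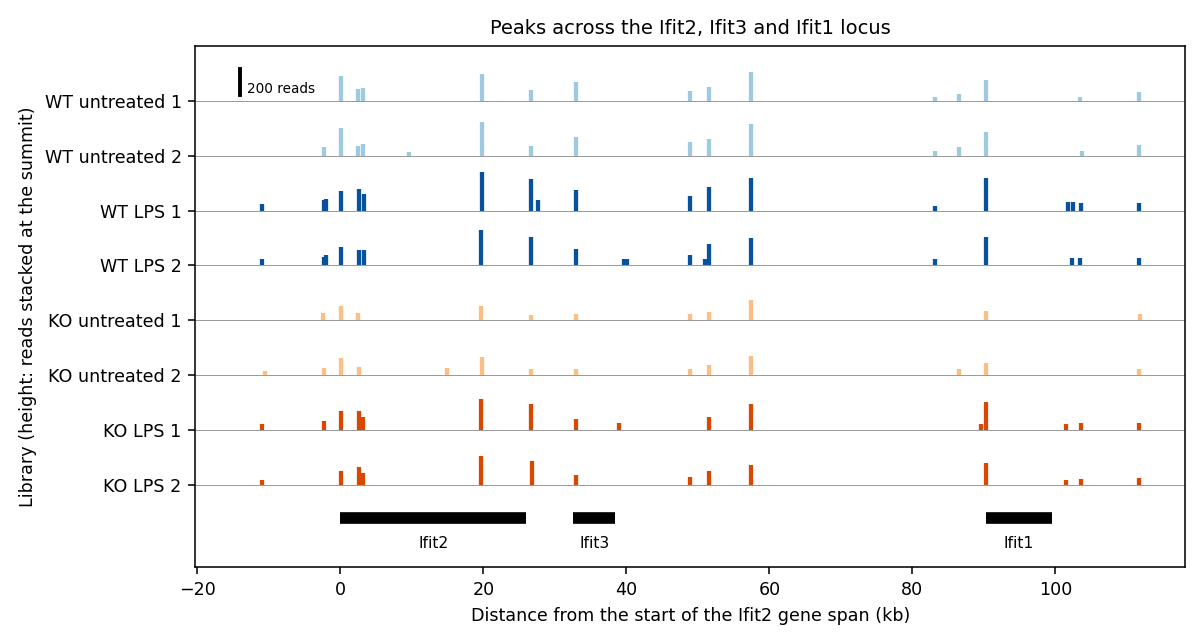
Peaks across the Ifit2, Ifit3 and Ifit1 locus in the 8 libraries, by distance from the start of the Ifit2 gene span (kb); the height of each bar is the number of reads over the summit, with a bar of 200 reads for scale and gene spans in black. The peak just past Ifit2 is taller in the LPS libraries of both genotypes, and the highest pileup of the locus is 292 reads, in WT LPS replicate 1.

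In the ISG15 system, Isg15, the ubiquitin-like modifier, has its single region at the gene start (chr4:156200607-156201057). The pileup was 194 and 205 reads in WT untreated and 293 and 254 in WT LPS (0.60 ± 0.13 SE, adjusted p = 0.00447), and 96 and 105 in KO untreated and 237 and 226 in KO LPS (1.36 ± 0.13 SE, adjusted p = 2.53e-05). Both KO values were below both WT values before and after LPS, by more before it. Herc6, the ligase that attaches ISG15 in mice, rose in pileup at its start region, from 233 and 280 to 362 and 310 reads in WT and from 122 and 207 to 247 and 215 in KO. The Usp18 start region rose in WT (311 and 271 to 407 and 323 reads, adjusted p = 0.0255), and in KO had 193 and 235 against 253 and 214 reads (adjusted p = 0.155).

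Parp14 held the 2 largest rises in WT. Its intragenic region chr16:35843890-35844577 had 145 and 126 reads in WT untreated and 428 and 433 in WT LPS (1.82 ± 0.15 SE, adjusted p = 1e-05), and 124 and 156 in KO untreated and 393 and 363 in KO LPS (1.60 ± 0.15 SE, adjusted p = 1.98e-05). LPS and untreated values were far apart in both genotypes, and WT and KO overlapped before LPS. At Dtx3l, 4 of the 5 shared regions rose in pileup in each genotype. Parp9, whose start it shares with Dtx3l, had 1 region by the rule.

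Rsad2 and its neighbour Cmpk2, a mitochondrial nucleotide kinase, lie side by side. The Rsad2 start region rose from 329 and 343 to 470 and 400 reads in WT (0.52 ± 0.14 SE, adjusted p = 0.0127) and from 191 and 254 to 387 and 346 in KO (0.89 ± 0.14 SE, adjusted p = 0.000485). The Cmpk2 start region rose from 269 and 298 to 376 and 390 reads in WT, and from 138 and 184 to 325 and 298 in KO. Isg20, a 3′-5′ exonuclease, rose at both shared regions in both genotypes. Its start region (chr7:78913557-78914091) had 263 and 252 reads before and 376 and 310 after LPS in WT, and 93 and 142 before and 326 and 265 after in KO.

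Among the PYHIN genes, which include cytosolic DNA sensors, Ifi205 rose in both genotypes, from 199 and 254 to 365 and 348 reads in WT and from 134 and 132 to 247 and 240 in KO. The Ifi203 start region had 201 and 200 against 229 and 276 reads in WT (0.48 ± 0.20 SE, adjusted p = 0.0915) and 91 and 70 against 192 and 189 in KO (1.41 ± 0.20 SE, adjusted p = 0.000282). At Ifi204 the start region missed the threshold in both genotypes (adjusted p = 0.335 in WT and 0.15 in KO), while a region 36.6 kb outside the gene, chr1:173803421-173803833, rose from 43 and 48 to 96 and 76 reads in WT and from 41 and 40 to 91 and 84 in KO.

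At 7 of the 31 members no shared region passed the threshold in pileup in KO, and these were Bst2, Daxx, Eif2ak2, Ifi35, Oas2, Oas3 and Trim21. The same 7 were among the 13 without a rise in WT. Oas3 had 341 and 329 reads at its start in WT untreated, 338 and 276 in WT LPS, 226 and 252 in KO untreated, and 272 and 200 in KO LPS. Eif2ak2, the kinase PKR that halts translation on sensing double-stranded RNA, had 185 and 210, 180 and 130, 118 and 159, and 143 and 97 reads in the same order. Bst2, or tetherin, which holds budding virions at the cell surface, had 297 and 285, 241 and 300, 177 and 188, and 227 and 182. At these start regions untreated and LPS values overlapped in at least 1 genotype. All 3 of these starts carry the ISRE core letters.

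Oas1a rose at a region inside the gene (chr5:120897456-120897920; 71 and 57 to 106 and 98 reads in WT, 40 and 69 to 102 and 77 in KO) and not at its start. Ifnb1 rose at a region 14.77 kb from the gene (chr4:88537324-88537857), from 102 and 120 to 155 and 162 reads in WT and from 75 and 89 to 123 and 100 in KO. Adar and Trim25 each rose at 1 region within the gene in both genotypes and not at a start. The Trim30a region at its inner start had 286 and 280 reads against 323 and 333 in WT (adjusted p = 0.0648), and rose from 151 and 161 to 263 and 243 in KO (adjusted p = 0.00068).

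Other members gave single patterns. Trim21, an antibody receptor of the cytosol, and Ifi35 each had a start region with no call in rank or pileup between untreated and LPS. Daxx, a histone chaperone of nuclear bodies, had the deepest start peak, with 477 to 569 reads in WT and 378 to 484 in KO over both treatments. Its enrichment rank fell in KO (shift -0.61 ± 0.19 SE, adjusted p = 0.0439). Sp100, a component of nuclear bodies, rose at 1 intragenic region (chr1:85663979-85664465; 65 and 96 to 186 and 140 reads in WT, 50 and 72 to 124 and 100 in KO) and not at its start. Samd9l rose at 3 of 4 shared regions in WT and at 1 in KO. Xaf1 and Zbp1, a sensor of left-handed nucleic acid, rose at their starts in KO (adjusted p = 0.0263 and 0.000822), and in WT had 296 and 318 against 305 and 268 reads and 256 and 256 against 278 and 241 reads.

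Members without a region by the rule were looked up at their spans. Mx1 and Mx2 encode dynamin-like GTPases in mouse strains with intact copies. The Mx1 span had 1 peak region in all 8 libraries, 1 in every group except KO untreated, and 1 in KO untreated alone. The Mx2 span had 2 regions in all 8 libraries and 3 others with 1 or 2 libraries each, all after LPS. Sp110, a nuclear body protein, had no peak at its span.

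Before LPS, KO cells lacked 10 member regions that both WT libraries held, at 10 members, and had 1 that WT lacked. That is 6.17% and 0.617% of the 162 member regions, close to the shares of all regions. Of all regions, 6.22% were lost and 0.735% gained in that comparison, and of all genes 20.8% had a lost and 2.50% a gained region. The 10 were at Ifit1, Ifit2, Rsad2, Oasl1, Ifi44, Ifnb1, Trim30a, Zbp1, Parp14 and Rnf213, and the deepest were at Ifit2 (97 and 91 reads in WT), Parp14 (76 and 110) and Rsad2 (69 and 86). The 1 gained was 24.0 kb from Dtx3l (chr16:35902354-35902721; 50 and 45 reads in KO untreated and 133 and 114 in WT LPS). With every list shortened to its 44504 strongest peaks, 3 of 133 member regions were lost (2.26%, against 2.49% of all regions), at Ifit2, Oasl2 and Trim30a. There, 3 were gained (2.26%, against 2.27% of all), at Dtx3l, Ifi204 and Rnf213. Both shares were again close to those of all regions.

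After LPS, KO lacked 14 member regions at 13 members and had 1 more, at Sp100. That is 8.64% and 0.617% of member regions, against 6.94% lost and 0.711% gained of all regions. Of all genes, 22.2% had a lost and 2.40% a gained region. With lists of equal length, 3 of 133 member regions were lost (2.26%, against 2.67% of all regions), at Ifi204, Ifit2 and Usp18. There, 6 were gained (4.51%, against 2.26% of all), at Ifi44, Ifit1, Oas2, Rnf213, Trim30a and Zbp1. Rsad2 was the 1 member with a region in all 4 WT and no KO library (0.861% of all regions; the reverse held for 0 member regions and 0.0678% of all), chr12:26453022-26453267, with 69 and 86 reads in WT untreated and 100 and 88 in WT LPS. With lists of equal length Rsad2 had no region lost before or after LPS. Oas2 lacked 2 regions in KO after LPS, chr5:120728970-120729389 and chr5:120729540-120729799, with 39 to 55 reads in the WT LPS libraries, and none with lists of equal length. The region with the highest enrichment percentile among the 14 was 42.4 kb from Ifi204 (chr1:173809273-173809673), with 75 and 89 reads in WT untreated, 57 and 54 in WT LPS, 44 and 61 in KO untreated and none in KO LPS.

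On the centred scale, which removes each library's median, 8 of the 65 shared member regions were lower in pileup in KO than in WT before LPS and 2 were higher, where 0.998% and 2.36% of all shared regions were. The 8 lay at Ifit2, Ifit3, Isg15, Isg20 (2 regions), Oasl2, Ifi203 and Ifi204. Ifit3 differed most: its start region, chr19:34582978-34583720, had 148 and 146 reads in WT untreated and 49 and 49 in KO untreated (-1.23 ± 0.14 SE, adjusted p = 0.00195). It was also lower in enrichment rank (-1.18 ± 0.19 SE, adjusted p = 0.0227). After LPS it had 160 and 125 reads in WT and 85 and 80 in KO (-0.42 ± 0.14 SE, adjusted p = 0.17). The Oasl2 region chr5:114896908-114897935 had 188 and 209 reads in WT untreated and 87 and 85 in KO untreated (-0.85 ± 0.15 SE, adjusted p = 0.0141), and Isg15 differed by -0.63 ± 0.13 SE, adjusted p = 0.0255.

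Both regions higher in KO before LPS were also higher in enrichment rank. At Parp14 (chr16:35888158-35888592) the pileup was 40 and 38 reads in WT untreated and 67 and 103 in KO untreated (1.45 ± 0.22 SE, adjusted p = 0.00642). At Trim25 (chr11:89006284-89006850) it was 74 and 69 against 82 and 114 (0.80 ± 0.16 SE, adjusted p = 0.0209). The enrichment rank gave 2 regions higher and 1 lower in KO, against 0.404% and 0.426% of all shared regions, and without any 1 of the 4 libraries at most 1 of these calls was left. The number lower in pileup was 2 without WT untreated replicate 1, 1 without WT replicate 2, 5 without KO untreated replicate 1 and 2 without KO replicate 2.

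The local background was lower in KO at 31 of the 65 regions before LPS and higher at 1 (3.82% and 14.0% of all shared regions). It was lower at 10 and higher at none after LPS (3.42% and 10.3%). The regions lower before LPS lay at 19 members. Without WT untreated replicate 2, 15 regions were lower before LPS. After LPS, omitting replicate 1 of either genotype left 2 lower, omitting replicate 2 of WT left 0 and omitting replicate 2 of KO left 4.

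After LPS no shared member region differed between the genotypes in centred pileup (limma), with 5 at an unadjusted p under 0.05, nor in enrichment rank, with 13 (0.0904% of all shared regions were higher and 0.132% lower). Among all shared regions 0.775% were higher and 0.281% lower in pileup. Not centred, 11 member regions were lower in KO after LPS and 30 before it, where the median of all shared regions was -0.35 and -0.33. The 65 centred differences after LPS ranged from -0.42 to 0.61 on the log2 scale, with a median of 0.03, against a median of -0.17 before LPS. The difference between genotypes in the LPS change itself passed the threshold (limma) at no member region in pileup, rank or background. At an unadjusted p under 0.05 there were 17, 10 and 16 of the 65, and 2398, 2259 and 3073 of all 30960. Over all shared regions 0.0323% passed upward and 0.0937% downward in background, and 0 in pileup or rank. The lowest adjusted p of a member was 0.405 in pileup, 0.52 in rank and 0.117 in background. A larger LPS change in KO than in WT, with a median difference of 0.15 in pileup over the 65 regions, was thus not shown at any single region.

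The rest of the pathway was read from a list of 26 genes, from the receptor Tlr4 through transcription factors and the RNA sensors to the feedback inhibitors Socs1 and Socs3. They had 182 regions, a median of 6 per gene against 3 over all genes with a region. In WT, 28 of the 182 regions were gained and 9 lost (10.1% and 6.02% of all regions). In KO, 17 were gained and 8 lost (8.03% and 5.56%). By gene, 13 of the 26 had a gained region in WT and 5 a lost one (24.4% and 18.8% of all genes with a region). In KO, 9 had a gained and 6 a lost one (20.9% and 17.4%). A gene with more regions has more chances of such a call, so the shares of genes are not on equal terms. Regions with a peak in all 4 LPS libraries and no untreated library numbered 10 (5.49%, against 4.85% of all regions), among them regions at Socs3 (2), Ifnar2 (3), Ddx58, Jak1 and Irf5. Ifnar2, a chain of the interferon receptor, held chr16:91362557-91363163 with 257 and 250 reads in WT LPS and 208 and 226 in KO LPS. The Socs3 region chr11:117965034-117965970 had 287 and 251 reads in WT LPS and 206 and 190 in KO LPS. Tlr4 had a region of the reverse pattern (chr4:66793445-66793752), with 39 to 49 reads in the untreated libraries.

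Of the 89 shared regions of these 26 genes, 21 rose and 10 fell in centred pileup in WT, and 26 rose and 10 fell in KO, with medians of 0.19 and 0.17. The effector genes, with none falling in either genotype, thus had medians of 0.39 and 0.53 on the same scale, and the difference between the lists was not tested. In KO against WT, 1 of the 89 regions, at Jak1, was higher before LPS, and none differed after LPS.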

How the data were processed

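ATAC-seq peak lists of 8 libraries, 2 in each of 4 groups, were analysed. Per the submitters' processing notes, the authors aligned reads with BWA 0.7.12 to mm10 and called peaks with MACS2. The deposited columns used were fold enrichment (a ratio), the −log10 p and the summit offset. The deposited score and −log10 q entered no result. Filters applied to the lists are not given in the sources used here, and total read depth is not either. Peaks overlapping by at least 1 bp were merged over all lists. Genes were taken from RefSeq tables (GRCm38.p6), and the members and lists were chosen with earlier results of these data known.

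A region counted as gained where the 2 libraries of one group had a peak and those of its comparison group did not, and as lost in the reverse case. Ranks of enrichment among the 30960 shared regions were turned into normal scores within each library and tested with limma 3.58.1 in R 4.3.3. The model had 4 group means and 4 residual degrees of freedom, and p-values were adjusted by Benjamini-Hochberg over all 30960 regions, with a threshold of 0.05. Summit pileup and local background were solved from the enrichment and −log10 p of each peak (largest error 0.001, 0 peaks unsolved), a step chosen after seeing the data. Enrichment adds 1 read to both terms. Python 3.11.15, numpy 2.4.6, pandas 2.3.3 and scipy 1.17.1 were used, and the scripts were tested on simulated data. Alternatives were lists of equal length, a −log10 p of at least 20, 50% cover, genes within 20 kb, other measures, a replicate block and each library left out. Regions named are those gained or lost, or past the threshold, with the deepest or largest given in full, and the start regions of members. Results on some genes of the marker and pathway lists are not reported here.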

Additional observations from a re-analysis of the deposited data

Results flagged for a closer look

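At 8 member regions both LPS libraries of one genotype ranked above both of its untreated libraries in enrichment, while in the other genotype both ranked below. The share of all shared regions with such an order was not counted, so this count has no background. In the test of the difference itself (limma, adjusted over all 30960 shared regions) none passed the threshold. The KO minus WT shift was 1.21 at Isg15 (adjusted p = 0.5197), where the percentile was 6.45 and 7.14 before and 3.05 and 3.25 after LPS in WT, and 1.42 and 0.93 before and 3.88 and 13.76 after in KO. The pileup there rose in both genotypes. It was 1.02 at the Ifit2 region starting at 34569988 and 0.99 at the Ifit3 start (both adjusted p = 0.5197), where Ifit3 stood at 66.83 and 60.9 before and 46.25 and 37.1 after LPS in WT, and at 22.61 and 18.71 before and 34.07 and 34.86 after in KO. At Herc6 (region starting at 57641779) the difference was 1.01 (adjusted p = 0.5197). It was 0.57 at Usp18 (region starting at 121271953, adjusted p = 0.76), 0.51 at Isg20 (region starting at 78912206, adjusted p = 0.7674) and 0.42 at Zbp1 (adjusted p = 0.823). At Rsad2 (region starting at 26460060) it was -0.37 (adjusted p = 0.8312). In pileup, both LPS values were also above both untreated ones in each genotype at these Ifit2, Usp18, Isg20 and Rsad2 regions. At Herc6 they were below in each genotype. At Ifit3 and Zbp1 they were above in KO, and the WT values overlapped.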

How the results depend on the processing

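The gained counts after LPS stayed within 1.5 times of 26 in WT and 25 in KO under list length, p-value, cover and distance alternatives. With −log10 p of at least 20, WT lost 3 of 120 member regions after LPS (2.5%, against 6.99% of all regions). KO against WT then had 0 gained and 4 lost before LPS (3.33% lost, against 6.49% of all). After LPS it had 7 lost (5.83%, against 7.13%), with the same numbers of members in the genotype comparisons. The share lost in KO after LPS was thus below that of all regions, where the full lists put it above (8.64% against 6.94%). With equal numbers of peaks, WT lost 2 regions at 2 members, KO against WT had 3 gained and 3 lost before LPS and 6 gained and 3 lost after it. With genes within 20 kb, 0 were gained in KO before LPS, and with 50% cover, 0 after LPS.

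Enrichment ranks depended most on the measure. In WT, ranks of −log10 p gave 15 regions higher and 1 lower, log2 enrichment 4 and 8, and centred pileup 29 and 0. In KO these gave 23 and 0, 1 and 6, and 36 and 0. For KO against WT before LPS, 1 was higher with the replicate block, with log2 enrichment and with −log10 p of at least 20, and the number lower was 2 with ranks of −log10 p, 2 with log2 enrichment and 8 with pileup. Not centred, pileup was higher at 14 in WT after LPS, and in KO against WT at 1, lower at 30 before LPS and at 11 after. Background not centred was lower at 0 in KO after LPS, and in KO against WT higher at 0 and lower at 53 before LPS and lower at 51 after. The direction turned with centred pileup at Rsad2 in WT (0.39) and KO (0.60), at Oasl2 in WT (0.0445), and at Daxx (0.086) and Usp18 (0.28) in KO, and with ranks of −log10 p at Rsad2 (0.0422) and Usp18 (0.0046) in KO. Enrichment and −log10 p divide by or test against the local background and pileup does not.

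Leaving out 1 library at a time gave 31 to 36 regions gained in WT (22 to 23 members) and 6 to 11 lost (5 to 8), and 26 to 40 gained in KO (17 to 23) and 4 to 11 lost (4 to 11), where 40 was without KO LPS replicate 2. For KO against WT it gave 1 to 8 gained (1 to 6 members) and 11 to 20 lost (11 to 15) before LPS, and 2 to 5 gained (2 to 5) and 16 to 22 lost (15 to 18) after. Each library sets a condition of a call, so these counts cannot fall and do not test the calls. Of all regions, 11.7 to 15.6% were gained in WT (19.1 to 22.2% of member regions) and 9.26 to 12.9% in KO (16.0 to 24.7%). KO against WT lost 9.04 to 11.6% of all before LPS (6.79 to 12.3% of member regions). After LPS it lost 9.25 to 14.5% (9.88 to 13.6%). In rank, 2 to 4 were higher and 1 to 2 lower in WT, 2 to 7 higher and 1 to 2 lower in KO, and 0 to 1 higher and 0 to 0 lower in KO against WT before LPS. In pileup, 19 to 22 were higher in WT and 29 to 35 in KO, and 0 to 3 higher and 1 to 5 lower in KO against WT before LPS. In background, 46 to 48 were higher in WT, 50 to 52 higher and 0 to 1 lower in KO, 0 to 1 higher and 15 to 28 lower in KO against WT before LPS, and 0 to 4 lower after. A group left with 1 library is assumed to vary like the others.

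Same-numbered libraries showed little shared deviation in enrichment rank, with correlations from -0.077 to 0.032. These values cannot tell whether such libraries shared an animal or a batch. With the replicate block 24 named region calls were kept and 2 were lost. With 2 libraries a group, a call needs a peak in both. Peak numbers and the pileup over shared regions were lower in KO, and the lowest background was the same, 5.53 reads, in every library.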
